A study of Rattus norvegicus with 18 samples.

Results

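Tjp1, Ocln and Cdh1 encode junction proteins commonly used to follow the epithelial barrier of the gut. They were taken as 3 Ensembl gene IDs out of 30562 in the count table, and an ID was kept only where the table placed it on the chromosome named for its symbol, which all 3 met. RNA from intestinal tissue of wild-type Sprague-Dawley rats, an outbred stock, was sequenced in 18 libraries, 6 in each of 3 groups. One group was given 10 Gy of X-rays in a single exposure and then Changbing Formula, a preparation that the labels name without composition or dose. A further group was given the same exposure alone, and control rats were left untreated. The labels used here state no bowel segment, age, sex or interval after irradiation, and they give 1 batch for all samples.

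Neighbouring enterocytes are sealed at their apical side by tight junctions and held together just below by adherens junctions. Occludin, the product of Ocln, is a membrane protein of the tight junction. ZO-1, the product of Tjp1, is the cytoplasmic scaffold that ties occludin and claudins to the actin cytoskeleton. E-cadherin, the product of Cdh1, is the calcium-dependent adhesion molecule of adherens junctions and binds its counterpart on the next cell. Ionising radiation is known to damage the intestinal epithelium by killing proliferating crypt cells, and these junction proteins are commonly examined after it.

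Tjp1 (ENSRNOG00000011077) spans 118849838 to 119094432 on the reverse strand of chromosome 1 in mRatBN7.2, with 7071 exonic bases in 32 merged blocks. Ocln (ENSRNOG00000018297) spans 31657220 to 31764150 on the reverse strand of chromosome 2, with 7672 exonic bases in 22 merged blocks. Cdh1 (ENSRNOG00000020151) spans 34492371 to 34561775 on the forward strand of chromosome 19, with 5333 exonic bases in 16 merged blocks. No exon of the 3 genes overlapped an exon of another annotated gene, and the span of 1 other gene overlapped that of Ocln. A RefSeq gene table built on GRCr8 placed all 3 symbols on the same chromosomes.

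Promoter windows were taken from RefSeq on GRCr8 and run from 250 bases before to 50 bases after an annotated transcript start. Of the 3 genes, 2 had an entry, Tjp1 at chr1:128325311-128325610 and Ocln at chr2:33441149-33441448, both on the reverse strand and printed 5′ to 3′ along the gene. The start used for Tjp1 lies inside the gene, 179658 bases downstream of the first base of its RefSeq span, and that for Ocln 1009 bases downstream. Each window therefore describes 1 annotated start, and for neither gene the one at the beginning of its RefSeq span. Cdh1 had no match. Capitals mark matches to the E-box CANNTG, which reads the same on both strands.
Tjp1: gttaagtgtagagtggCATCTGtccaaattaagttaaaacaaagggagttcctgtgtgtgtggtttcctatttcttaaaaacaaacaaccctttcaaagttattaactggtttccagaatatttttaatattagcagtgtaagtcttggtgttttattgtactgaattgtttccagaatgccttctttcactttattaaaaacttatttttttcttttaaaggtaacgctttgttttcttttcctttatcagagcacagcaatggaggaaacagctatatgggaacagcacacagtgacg
Ocln: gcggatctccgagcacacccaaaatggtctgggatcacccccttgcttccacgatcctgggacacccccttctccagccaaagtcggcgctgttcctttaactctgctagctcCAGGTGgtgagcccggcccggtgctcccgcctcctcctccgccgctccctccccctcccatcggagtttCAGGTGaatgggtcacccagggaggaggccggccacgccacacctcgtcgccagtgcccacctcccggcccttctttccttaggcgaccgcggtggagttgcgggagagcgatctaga
The Ocln window held 2 E-boxes, beginning at -137 and -68 counted from the start, and both read CAGGTG, the form that Snail-family and ZEB repressors are known to bind in the human and mouse Cdh1 promoters. The Tjp1 window held 1, beginning at -234, which read CATCTG. The motif CAGGTG or its reverse complement CACCTG, a subset of CANNTG, occurred in 18.8% of all 33469 windows and at least 2 times in 2.52%. CANNTG occurred in 72.1%. The GC content was 33.7% in the Tjp1 window and 65.3% in the Ocln window, against a median of 51.7% over all windows. The GC box GGGCGG, searched on both strands, was in neither window and in 33.1% of all windows. These matches describe the letters and no binding was measured.

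Library totals lay between 33598572 and 48398184 counts. Control 2 and irradiated 4 stood apart from the other 16 libraries on the first principal component, which held 40.2% of the variance, with scores of 176 and 216 against -52.9 to 34.2. Results that rest on them are therefore given with and without them. All 3 genes passed the filter on low counts, among 16593 genes that did, and their raw counts were between 1805 and 9916 for Tjp1, 2847 and 20840 for Ocln, and 4411 and 82027 for Cdh1.

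Levels were compared between the genes in TPM, which are counts divided by exon length and scaled to the same total in every library. Cdh1 stood highest, with 465 ± 36.9 TPM in irradiated plus formula, 387 ± 222 TPM in irradiated and 413 ± 130.2 TPM in control libraries (SD, n = 6 each). Ocln averaged 78.8 ± 18.9, 63.9 ± 32.1 and 63.6 ± 24.4 TPM in irradiated plus formula, irradiated and control libraries. Tjp1 averaged 54.4 ± 6.04, 40.7 ± 17.3 and 42.3 ± 10.6 TPM in the groups in that order. Cdh1 exceeded Ocln, and Ocln exceeded Tjp1, in 17 of the 18 libraries, and in control 1 the last 2 stood at 51.8 TPM for Ocln and 51.9 TPM for Tjp1. All 30562 genes were ranked by TPM, including those that failed the filter on low counts. Leaving out control 2 and irradiated 4, the lowest percentile was 99.2 for Cdh1, 93.1 for Ocln and 91.7 for Tjp1. TPM are shares of all counts, and mitochondrial genes took 5.77% to 39.7% of them, so groups were compared with CPM, counts relative to the library total, scaled by the trimmed mean of M-values (TMM).

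The scaffold gene Tjp1 ranged from 153 to 273 CPM in the 6 irradiated plus formula libraries, with a median of 202. In irradiated libraries it ranged from 32.9 to 212 CPM, with a median of 173. In control libraries it ranged from 65.1 to 192 CPM, with a median of 176. Single low libraries set the bottom of both ranges, irradiated 4 and control 2, and the other 10 of those groups lay between 163 and 212 CPM. All 3 groups overlapped, and the formula group held the 2 highest values, 244 and 273 CPM.

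For the tight-junction membrane gene Ocln, irradiated plus formula libraries ranged from 245 to 495 CPM with a median of 312. Irradiated libraries ranged from 52.0 to 329 CPM with a median of 314. Control libraries ranged from 143 to 455 CPM with a median of 230.3. The lowest values were again those of irradiated 4 and control 2, and the ranges overlapped. Irradiated plus formula 6, at 495 CPM, lay above the next library of its group at 325 CPM, and control 5, at 455 CPM, above the next control at 307 CPM.

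Cdh1, the adherens junction gene, ranged from 1134 to 1494 CPM in irradiated plus formula libraries, with a median of 1347. Irradiated libraries ranged from 80.5 to 1415 CPM, with a median of 1355. Control libraries ranged from 574 to 1793 CPM, with a median of 1121. The formula group was the narrowest, with a coefficient of variation of 9.12%, against 47.9% in irradiated and 36.9% in control libraries, and its range lay within the control range. Without irradiated 4 and control 2 those coefficients were 14.3% in irradiated and 27.2% in control libraries. For the other genes the formula group was then not the narrowest. Without the same libraries the coefficient for Tjp1 was 20.2% in irradiated plus formula, 10.5% in irradiated and 5.20% in control libraries. That for Ocln was 26.7%, 15.6% and 36.2% in the same order.

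**Figure D1:**
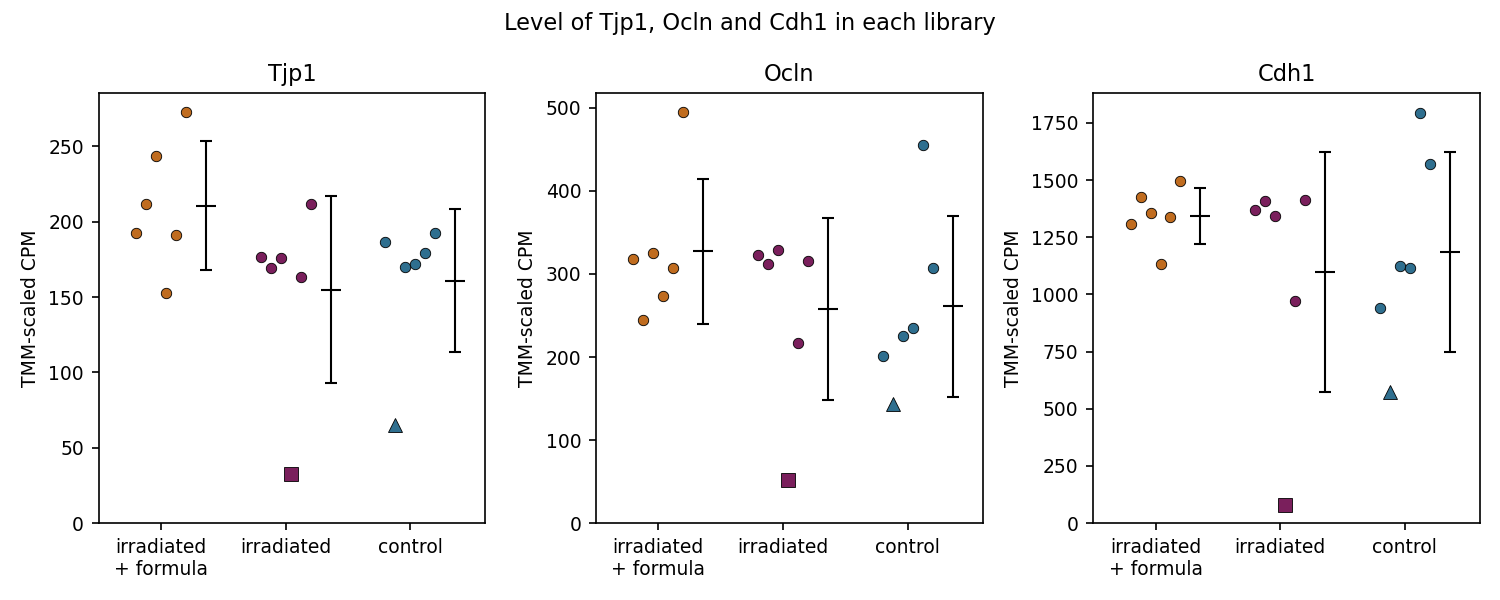
TMM-scaled CPM of Tjp1, Ocln and Cdh1 (vertical axes, starting at 0) in each of 18 libraries by group, with bars for the mean ± SD (n = 6). The square is irradiated 4, at 32.9, 52.0 and 80.5 CPM for the 3 genes in turn, and the triangle is control 2, at 65.1, 143 and 574 CPM; both lie below the other 16 libraries in every panel.

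The first comparison asked whether irradiation changed the junction genes, and none of the 3 passed the threshold, an adjusted p below 0.05 in edgeR's quasi-likelihood test over all 16593 genes. Tjp1 averaged 155 ± 62.1 CPM in the irradiated group, against 161 ± 47.7 CPM in the control group (SD, n = 6 each), a log2 fold change of -0.05 (SE 0.33, edgeR adjusted p = 0.998). Ocln averaged 258 ± 109 CPM in the irradiated group, against 261 ± 109 CPM in the control group, a log2 fold change of -0.02 (SE 0.35, edgeR adjusted p = 0.998). Cdh1 averaged 1098 ± 525 CPM in the irradiated group, against 1186 ± 437 CPM in the control group, a log2 fold change of -0.11 (SE 0.44, edgeR adjusted p = 0.998). All 3 values were under their standard errors. Their signs turned positive without control 2 and irradiated 4, at 0.05 for Tjp1, 0.12 for Ocln and 0.04 for Cdh1, and also for Ocln with DESeq2 size factors, and for Tjp1 and Ocln without the mitochondrial chromosome. With 1 library left out they were positive without irradiated 4 (0.16 for Tjp1, 0.19 for Ocln, 0.13 for Cdh1) and without control 5 (0.04 for Tjp1, 0.27 for Ocln, 0.10 for Cdh1), for Tjp1 and Ocln also without control 6 (0.0028 and 0.03), and for Ocln without irradiated 5 (0.09). The 95% interval of the fold was 0.595 to 1.56 for Tjp1, 0.589 to 1.65 for Ocln and 0.489 to 1.75 for Cdh1. Changes in either direction within these ranges were not excluded. Without the 2 libraries the interval was 0.847 to 1.26, 0.770 to 1.53 and 0.789 to 1.35 for Tjp1, Ocln and Cdh1. Of all genes tested 0 (0%) passed in edgeR, DESeq2 and limma-voom, and 321 (1.93%) had an unadjusted edgeR p below 0.05. Without control 2 and irradiated 4 the number with an unadjusted edgeR p below 0.05 was 1314 of 16567. Neither set included Tjp1, Ocln or Cdh1.

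The second comparison asked whether Changbing Formula changed the junction genes in irradiated rats, and again none of the 3 passed. Tjp1 averaged 211 ± 42.6 CPM in irradiated plus formula, against 155 ± 62.1 CPM in irradiated alone (SD, n = 6 each), a log2 fold change of 0.44 (SE 0.33, edgeR adjusted p = 0.779). Ocln averaged 327 ± 87.5 CPM in irradiated plus formula, against 258 ± 109 CPM in irradiated alone, a log2 fold change of 0.34 (SE 0.35, edgeR adjusted p = 0.814). Cdh1 averaged 1343 ± 122 CPM in irradiated plus formula, against 1098 ± 525 CPM in irradiated alone, a log2 fold change of 0.29 (SE 0.44, edgeR adjusted p = 0.872). Compared with the irradiated median, 5 of 6 formula libraries were higher for Tjp1, 3 for Ocln and 3 for Cdh1. Without control 2 and irradiated 4 the log2 fold changes were 0.21 for Tjp1 (SE 0.13), 0.11 for Ocln (SE 0.22) and 0.02 for Cdh1 (SE 0.17), and the lowest edgeR adjusted p was 0.995. With irradiated 4 alone left out they were 0.23 for Tjp1, 0.13 for Ocln and 0.05 for Cdh1. The 95% interval of the log2 fold change ran from -0.25 to 1.14 for Tjp1, -0.40 to 1.09 for Ocln and -0.63 to 1.21 for Cdh1. Over all genes 0 (0%) passed in edgeR and 928 (5.59%) had an unadjusted p below 0.05. DESeq2 called 8 (0.0501%) and limma-voom 0 (0%). Without control 2 and irradiated 4, 840 of 16567 genes had an unadjusted edgeR p below 0.05. Tjp1, Ocln and Cdh1 were in none of these sets.

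Irradiated plus formula libraries were set against controls last, and the junction genes did not pass here either. Tjp1 averaged 211 ± 42.6 CPM in irradiated plus formula and 161 ± 47.7 CPM in control libraries (SD, n = 6 each), a log2 fold change of 0.39 (SE 0.33, edgeR adjusted p = 0.887). Ocln, at 327 ± 87.5 CPM in irradiated plus formula and 261 ± 109 CPM in control libraries, had a log2 fold change of 0.32 (SE 0.35, edgeR adjusted p = 0.905). Cdh1, at 1343 ± 122 CPM in irradiated plus formula and 1186 ± 437 CPM in control libraries, had a log2 fold change of 0.18 (SE 0.44, edgeR adjusted p = 0.957). All 6 formula libraries lay above the control median for Ocln and Cdh1, and 5 of 6 did for Tjp1. The 95% interval of the log2 fold change ran from -0.31 to 1.09 for Tjp1, -0.42 to 1.07 for Ocln and -0.74 to 1.10 for Cdh1. Without control 2 and irradiated 4 Tjp1 had a log2 fold change of 0.26 (SE 0.13), with an interval from -0.02 to 0.53 and an edgeR adjusted p of 0.560. Without the same libraries Ocln had a log2 fold change of 0.23 (SE 0.22, edgeR adjusted p = 0.781) and Cdh1 one of 0.07 (SE 0.17, edgeR adjusted p = 0.927). Without control 2 alone the value was 0.04 for Cdh1. Over all genes 2 (0.0121%) passed in edgeR, 47 (0.3%) in DESeq2 and 499 (3.01%) in limma-voom with quality weights. An unadjusted edgeR p below 0.05 was found for 948 (5.71%), and without control 2 and irradiated 4 for 1606 of 16567. None of these counts included Tjp1, Ocln or Cdh1. In limma-voom with quality weights Ocln had a log2 fold change of 0.42 (SE 0.18, limma-voom unadjusted p = 0.029, adjusted p = 0.178). That fit gave an unadjusted p below 0.05 for 3626 of 16593 genes.

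The median log2 fold change of the 3 genes was -0.05 for irradiated against control, 0.34 for irradiated plus formula against irradiated and 0.32 for irradiated plus formula against control. Over all 16593 genes the medians were 0.01, -0.02 and -0.07. Without control 2 and irradiated 4 the medians of the 3 genes were 0.05, 0.11 and 0.23 in the same order, and those over all genes tested were 0.04, -0.01 and 0.02. The comparisons share libraries, so their values are not independent. With library totals alone the median over all genes was -0.11 for irradiated plus formula against control, where Tjp1 stood at 0.36. None of the 3 genes separated any pair of groups without overlap. For irradiated plus formula against control, 0.488% of genes lay wholly higher and 0.344% wholly lower. For irradiated plus formula against irradiated those shares were 0.0783% and 0.108%, and for irradiated against control 0% and 0.00603%.

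**Figure D2:**
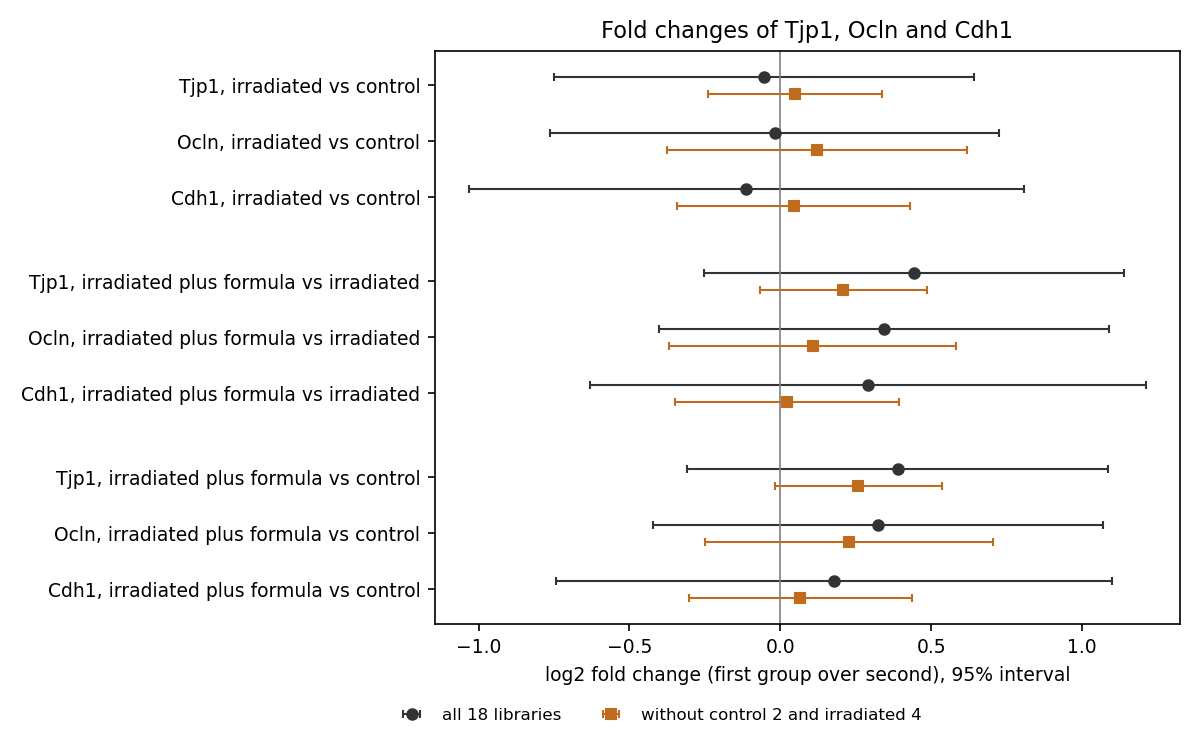
Log2 fold changes of Tjp1, Ocln and Cdh1 with 95% intervals (horizontal axis, first named group over second) in the 3 comparisons, from all 18 libraries (circles) and without control 2 and irradiated 4 (squares). Every interval includes 0; that of Tjp1 for irradiated plus formula against control runs from -0.31 to 1.09 with all libraries and from -0.02 to 0.53 without the 2.

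The deepest departures belonged to single libraries rather than to groups. In irradiated 4 Cdh1 stood at 80.5 CPM, 16.99-fold below the median of 1367 CPM in the other 5 irradiated libraries. Ocln was 6.08-fold lower there, at 52.0 CPM against a median of 316 CPM, and Tjp1 5.34-fold lower, at 32.9 CPM against 176 CPM. Of the 14319 genes that averaged at least 1 CPM, 3.52% were at least as far below as Cdh1, 9.26% as far as Ocln and 10.4% as far as Tjp1. In control 2 the order of the departures differed: Tjp1 was 2.76-fold below the median of the other 5 controls, Cdh1 1.96-fold and Ocln 1.65-fold. At least as far below lay 16.3% of genes for Tjp1, 23.6% for Cdh1 and 29.1% for Ocln. These 2 libraries were the lowest of the 18 for all 3 genes, with irradiated 4 below control 2, which held for 11.4% of all genes tested.

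Mitochondrial genes took 5.77% of the counts in irradiated 4 and 9.30% in control 2, and at least 12.8% in every other library, and the TMM factors of the 2 libraries were 1.30 and 1.20. Their totals, 42158799 and 38138777 counts, lay within the range of the others. The part of these quantities in the low junction gene levels was not tested. In bulk tissue a smaller epithelial share and less RNA per epithelial cell cannot be told apart, and markers of epithelium and other cell types were not analysed here because the gene IDs could not be paired with symbols. Within groups the SD of log2 CPM was 1.01 for Cdh1, 0.72 for Ocln and 0.70 for Tjp1, against a median of 0.46 over 1691 genes with a mean between 100 and 2000 CPM. Without the 2 libraries it was 0.26 for Cdh1, 0.37 for Ocln and 0.20 for Tjp1, against a median of 0.32. Ocln was thus above that median and Cdh1 and Tjp1 below it once the 2 libraries were left out.

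Ratios between the genes within a library do not depend on how libraries are scaled. Per length, Ocln stood at 0.119 to 0.230 of the Cdh1 level in the 16 libraries other than control 2 and irradiated 4. Control 2, at 0.173, lay inside that range, whereas irradiated 4, at 0.449, lay above it. Tjp1 stood at 0.0755 to 0.149 of the Cdh1 level in the 16 libraries, at 0.0855 in control 2 and at 0.309 in irradiated 4. In irradiated 4 Cdh1 was thus low relative to both tight junction genes, while the ratio of Tjp1 to Ocln there, 0.688, lay inside the range of 0.427 to 1.00 of the 16 libraries. Control 2 had a ratio of Tjp1 to Ocln of 0.494, also inside that range.

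Between groups none of the 9 differences in log2 ratio passed a two-sided exact permutation test over 924 arrangements of 12 libraries, adjusted over 9 tests. The mean log2 ratio of Ocln to Cdh1 counts was -1.88 ± 0.61 in irradiated and -2.19 ± 0.16 in control libraries (SD, n = 6 each; difference 0.31, exact permutation p = 0.212, adjusted p = 0.916). Without irradiated 4 and control 2 the irradiated mean was -2.12 ± 0.07 and the control mean -2.22 ± 0.15 (SD, n = 5 each; difference 0.10, exact permutation p = 0.206, adjusted p = 0.806). For irradiated plus formula the ratio of Ocln to Cdh1 was -2.07 ± 0.30, and it differed by -0.19 from irradiated (exact permutation p = 0.708) and by 0.12 from control (exact permutation p = 0.435). The log2 ratio of Tjp1 to Cdh1 was -2.69 ± 0.18 in irradiated plus formula, -2.59 ± 0.66 in irradiated and -2.87 ± 0.36 in control libraries. The log2 ratio of Tjp1 to Ocln was -0.62 ± 0.26, -0.72 ± 0.20 and -0.69 ± 0.47 in irradiated plus formula, irradiated and control libraries. The lowest adjusted p among the 9 was 0.916. In these libraries the junction genes therefore showed no detectable shift against each other between groups.

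**Figure D3:**
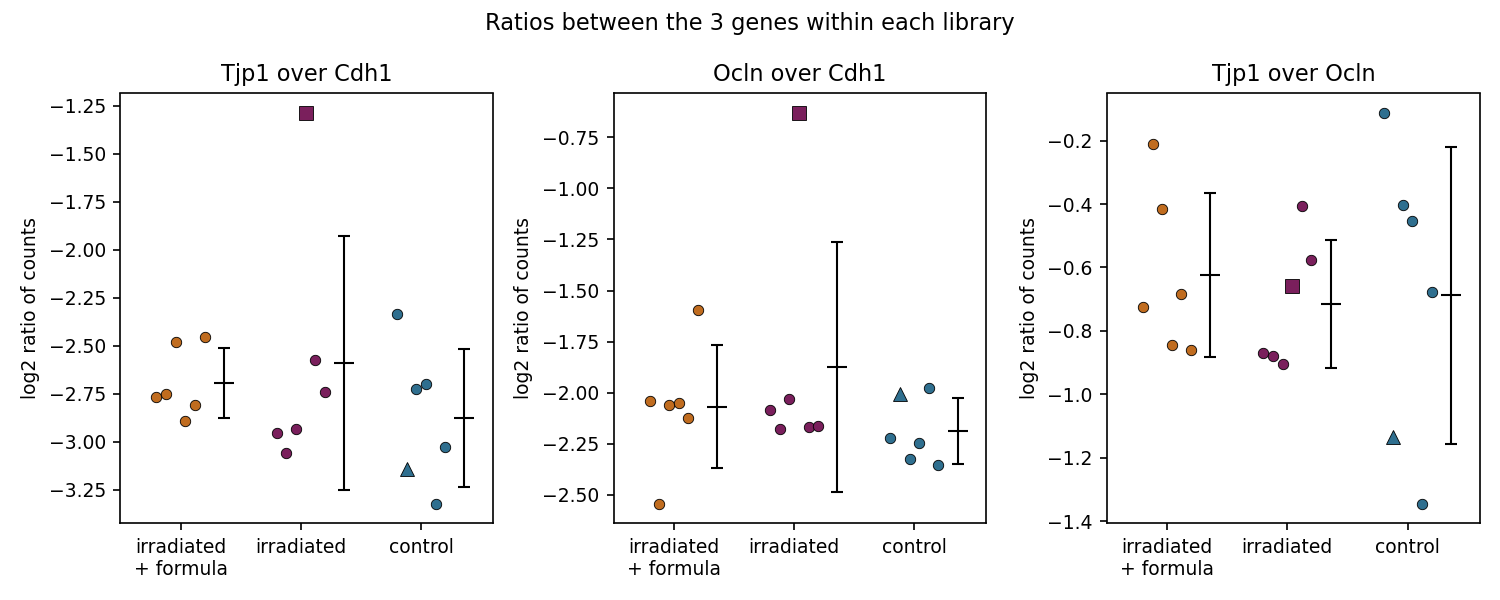
Log2 ratios of counts between pairs of the 3 genes (vertical axes) in each library by group, with bars for the mean ± SD (n = 6). Irradiated 4 (square) stands above all other libraries for Tjp1 over Cdh1, at -1.29, and for Ocln over Cdh1, at -0.63, but not for Tjp1 over Ocln, at -0.66; the triangle is control 2.

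Across the 18 libraries the 3 genes varied together, and for Tjp1 that relation did not pass the threshold without control 2 and irradiated 4. Correlations with and without these 2 libraries were not tested against each other. Both libraries lay below the other 16 for these 3 genes, as they did for 17.4% of all genes tested. How often other pairs of genes reach a Pearson r as high was not counted. Ocln and Cdh1 had a Pearson r of 0.94 (permutation p = 1e-05, the smallest that 100000 permutations can give; adjusted p = 3e-05), and their Spearman rho was 0.78 (permutation p = 0.00018, adjusted p = 0.00054). Without the 2 libraries farthest from the median, which were control 2 and irradiated 4, r was 0.83 (permutation p = 6e-05, adjusted p = 0.00018) and rho 0.69 (permutation p = 0.004, adjusted p = 0.012). The relation of Ocln with Cdh1 thus held in the other 16 libraries.

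Tjp1 and Cdh1 had an r of 0.92 (permutation p = 0.00018, adjusted p = 0.00018), and their rho was 0.66 (permutation p = 0.00364, adjusted p = 0.00546). Without the same 2 libraries r was 0.42 (permutation p = 0.109, adjusted p = 0.109) and rho 0.51 (permutation p = 0.0442, adjusted p = 0.0663). Tjp1 and Ocln had an r of 0.90 (permutation p = 5e-05, adjusted p = 7.5e-05), and their rho was 0.62 (permutation p = 0.00685, adjusted p = 0.00685). Without the 2 libraries r was 0.50 (permutation p = 0.0488, adjusted p = 0.0733) and rho 0.46 (permutation p = 0.0746, adjusted p = 0.0746). Neither relation of Tjp1 passed by Pearson or Spearman in the 16 libraries after adjustment over the 3 pairs. With levels centred on their group means over all 18 libraries, r was 0.95 for Ocln and Cdh1, 0.93 for Tjp1 and Cdh1, and 0.89 for Tjp1 and Ocln.

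**Figure D4:**
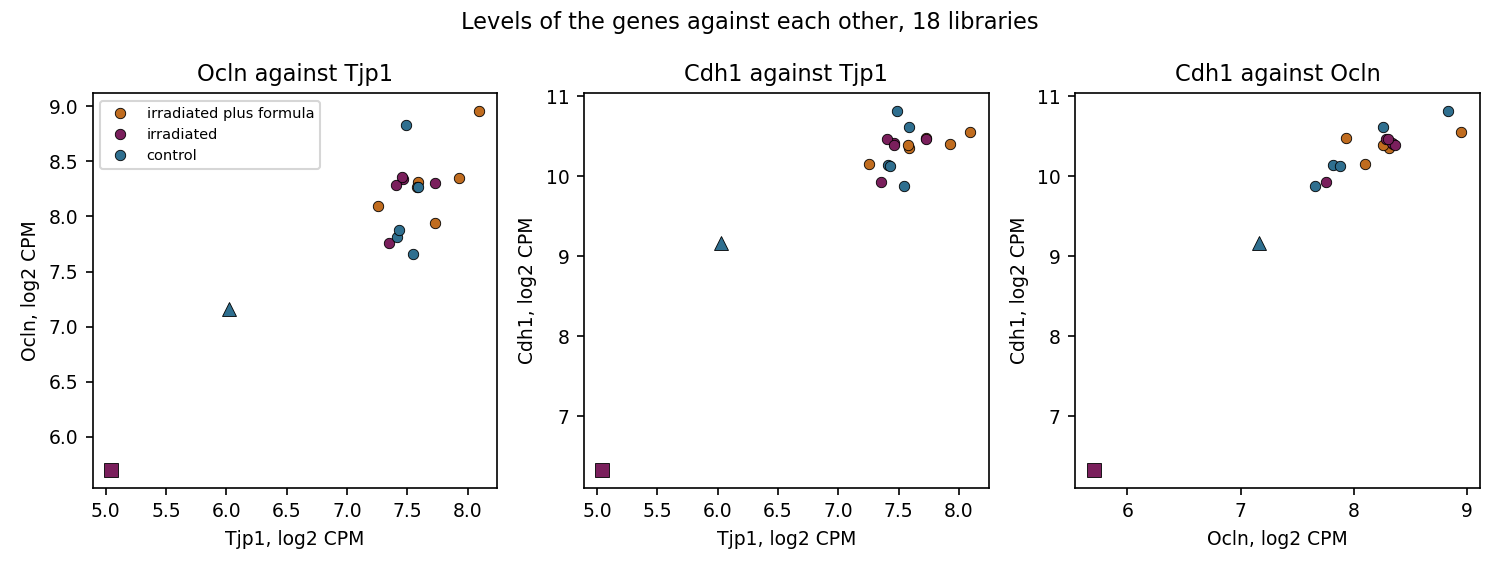
Log2 CPM of each pair of genes plotted against each other, 1 point a library, coloured by group. Irradiated 4 (square) and control 2 (triangle) lie apart at low levels of both genes; among the other 16 libraries r is 0.83 for Cdh1 against Ocln, 0.42 for Cdh1 against Tjp1 and 0.50 for Ocln against Tjp1.

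Each gene was also set against all genes that averaged at least 1 CPM, by Spearman's rho over the 18 libraries, as a description without a test. Ranked by likeness to Ocln, Cdh1 came in place 18 of 14318 genes and Tjp1 in place 218. Ranked by likeness to Cdh1, Ocln came in place 45 and Tjp1 in place 333, and for Tjp1 the places were 156 for Cdh1 and 267 for Ocln. The gene most like Tjp1 outside the 3 was ENSRNOG00000020014, on chromosome 1 from 95096266 to 95158836 on its reverse strand (mRatBN7.2), with a rho of 0.86 over 18 libraries and 0.81 over 16. Its mean was 813 CPM over all libraries, and its level was 28.9 CPM in irradiated 4 and 353 CPM in control 2. The gene most like Ocln was ENSRNOG00000015202, on chromosome 3 from 168621969 to 168655935 on its forward strand, with a rho of 0.91 over 18 libraries and 0.89 over 16. Its level lay between 122 and 188 CPM in every library, a far narrower range than that of Ocln. The gene most like Cdh1 was ENSRNOG00000001710, on chromosome 11 from 80339977 to 80352211 on its reverse strand, with a rho of 0.93 over 18 libraries and 0.91 over 16. It lay between 33.1 and 59.0 CPM, lowest in irradiated 4, where Cdh1 was also lowest. The median rho over all genes was 0.06 for Tjp1, -0.03 for Ocln and 0.01 for Cdh1. Libraries may differ in tissue makeup, which was not measured, so likeness of this kind names no common function.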

How the data were processed

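The authors deposited unscaled gene counts. Per the file headers they came from featureCounts 2.1.1 on mRatBN7.2 with Ensembl annotation release 110, with both ends aligned and chimeric pairs left out. The submitters' processing notes also list FastQC, fastp, STAR and SAMtools, without versions. Libraries, per the labels, came from poly(A)-selected RNA. Per the file headers neither a strand nor a pair-counting option was set, and 66.9% to 74.6% of the counts from 1 to below 40 were even, so both reads of a pair were largely counted. Groups were taken from the titles, since all descriptions carry the wording for untreated rats. All columns of counts were used (0 unused).

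Counts were tested in R 4.3.3 with edgeR 4.0.16 (quasi-likelihood test, filterByExpr, TMM, all 18 libraries, no covariate), with Benjamini-Hochberg adjustment over 16593 genes. Standard errors and intervals were derived from the F statistic and are approximate. Log2 CPM used a prior count of 2. DESeq2 1.42.0, limma-voom (limma 3.58.1), other scalings and filters, a replicate term and left-out libraries were alternatives, and the scaling by library totals alone was added after seeing the data. The procedure was tested on simulated data for irradiated against control. Genes varied independently there, so no simulated library departed in many genes together as control 2 and irradiated 4 did. The rule for named genes took the 3 genes and, for each, the gene with the highest Spearman rho. Lists of other junction genes, regulators and cell type markers were set up by symbol, but the reference gene table matched 0 of the IDs, so they were not used here; the symbols of the 3 genes came with their IDs. The genes, lists and tests were chosen with earlier results of these data known. The lowest median chi-square over 153 pairs of libraries was 6.38, so no library repeats another. The labels do not state that every library is another animal, and p-values measure only the spread between these samples.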

Additional observations from a re-analysis of the deposited data

Results flagged for a closer look

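Within groups of 6 libraries, 6 of 18 checks of the 3 genes' levels and ratios found a library far from the others of its group, where chance gives about 0.9, but the checks share libraries and are not independent. Irradiated 4 was far below the other irradiated libraries for Tjp1, at 32.9 CPM against 163 CPM in the next, and for Cdh1, at 80.5 CPM against 973 CPM in the next. Its log2 ratio of counts was far above the others of its group for Tjp1 over Cdh1, at -1.29 against -2.57 in the next, and for Ocln over Cdh1, at -0.63 against -2.03 in the next. Control 2 was far below the other controls for Tjp1, at 65.1 CPM against 170.2 CPM in the next. Irradiated plus formula 6 was far above its group for Ocln, at 495 CPM against 325 CPM in the next.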

How the results depend on the processing

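None of the 9 fold changes passed the threshold in any of 225 alternatives, with adjusted p from 0.178 to 1, and the 6 fold changes of irradiated plus formula against irradiated or control kept a positive sign in all of them. For irradiated against control the signs varied around 0. Tjp1 was positive at 0.0021 without the mitochondrial chromosome, 0.0067 in the 12 libraries alone, 0.049 without control 2 and irradiated 4 and 0.041 with irradiated 1 also left out. Ocln was positive at 0.026 with DESeq2 size factors, 0.026 in DESeq2, 0.033 without the mitochondrial chromosome, 0.23 in limma-voom, 0.042 in the 12 libraries alone, 0.12 without control 2 and irradiated 4 and 0.078 with irradiated 1 also left out. Cdh1 was positive at 0.060 in limma-voom, 0.044 without control 2 and irradiated 4 and 0.012 with irradiated 1 also left out, and the cause of these turns was not tested.

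Leaving out 1 library at a time gave log2 fold changes of irradiated against control from -0.22 to 0.16 for Tjp1, -0.14 to 0.27 for Ocln and -0.25 to 0.13 for Cdh1, lowest without control 2 for all 3 and highest without irradiated 4 for Tjp1 and Cdh1 and without control 5 for Ocln. Against irradiated the formula gave 0.23 to 0.55 for Tjp1, 0.13 to 0.43 for Ocln and 0.05 to 0.38 for Cdh1, lowest without irradiated 4. Against control it gave 0.23 to 0.47, 0.17 to 0.59 and 0.04 to 0.36 for Tjp1, Ocln and Cdh1.

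The ratios stayed short of the threshold in all 135 alternatives, with adjusted p of at least 0.623. Without control 2 and irradiated 4, Tjp1 over Cdh1 turned to -0.029 for irradiated against control, and to 0.16 when irradiated plus formula was set against irradiated, Ocln over Cdh1 to 0.056 for irradiated plus formula against irradiated, and Tjp1 over Ocln to -0.025 for irradiated plus formula against control. With irradiated 1 also left out these were -0.0044, 0.13, 0.066 and -0.025. With 1 library left out, over the 3 comparisons in the same order as above, Tjp1 over Cdh1 ranged from 0.02 to 0.39, -0.19 to 0.16 and 0.09 to 0.29. Ocln over Cdh1 ranged from 0.063 to 0.37, -0.29 to 0.056 and 0.02 to 0.21, and Tjp1 over Ocln from -0.16 to 0.087, 0.0095 to 0.15 and -0.067 to 0.18. The 2 ratios to Cdh1 changed sign for irradiated plus formula against irradiated without irradiated 4. Tjp1 over Ocln changed sign without controls 1, 3 or 4 or irradiated 1, 2 or 3 for irradiated against control, and without controls 2 or 5 or irradiated plus formula 2 for irradiated plus formula against control. Without control 2 and irradiated 4, which were also the 2 farthest, r was 0.50 for Tjp1 and Ocln and 0.42 for Tjp1 and Cdh1, no longer past the threshold.

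The number of genes called was 0 in all alternatives for irradiated against control. It was 8 in DESeq2 for irradiated plus formula against irradiated, against 0 in edgeR. For irradiated plus formula against control, with 2 in edgeR, it was 47 in DESeq2, 499 in limma-voom, 6 in the 12 libraries alone, 7 without control 2 and irradiated 4, 7 with irradiated 1 also left out, and 2 to 5 with 1 library left out, 5 without control 2. Same-numbered libraries did not consistently deviate together (5 of 18 pairs correlated over 0.1, range -0.51 to 0.61). The replicate block gave 1 gene there, and log2 fold changes of 0.37 for Tjp1, 0.33 for Ocln and 0.19 for Cdh1, and it changed no call of the 3 genes or their ratios.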
